A study of Drosophila melanogaster with 8 samples.

Results

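The 45 genes described here were Drosophila melanogaster genes that carry only a CG number as their symbol and whose transcripts were more abundant in larval hemocytes from a high-sugar diet (HSD) than from a control diet (CD). They were chosen by their measured values in the same 8 libraries. A gene was taken if its symbol was CG followed by digits, its mean over the HSD libraries was at least 2 CPM (its count scaled to the library total, in the usual unit of counts-per-million), that mean was at least 2 times the mean over the CD libraries, and its lowest HSD library lay above its highest CD library. Of 11769 genes in the table, 3936 had a CG number, 1976 of these reached 2 CPM on HSD, and 49 met all the values. The choice left out 6 CG-number genes by name, of which 4 (CG1208, CG17109, CG6733 and CG14857) met the values and 2 (CG14855 and CG14856) did not, so 45 members remained.

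The HSD libraries came from larvae on a sucrose-yeast medium to which sucrose had been added, given in the labels as 10x, and the CD libraries from larvae on that medium without the supplement. All larvae carried hmlΔ>2xeGFP, a reporter in which the Hemolectin promoter drives GFP, on a background labelled wild-type, and were in the third instar, at 96 h after egg laying and 25 °C. Each collection bled 5 larvae, and 20000 GFP-positive cells went into each of 4 libraries per diet. The reporter marks hemocytes of more than 1 class, and a pool of sorted cells gives only their mean, so fewer cells of a type and less RNA per cell cannot be told apart. The labels do not say whether the libraries of a diet came from separate cultures, so the spread between them may be partly technical.

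A CG number is the systematic name that the fly genome annotation gives to a predicted gene, and a gene keeps it as its symbol until a study names it. Such genes are not all of unknown function, because many encode proteins that sequence similarity places in an enzyme, transporter or protease family. Hemocytes of the larva are mostly plasmatocytes, macrophages that take up debris and microbes and secrete extracellular matrix, with a smaller class of crystal cells that store prophenoloxidase for melanization. Both classes secrete proteins into the hemolymph, among them serine proteases, which are made as inactive precursors and cleaved in cascades, and serine protease homologs, which have the same fold without a working active site.

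Summed gene counts ran from 20817891 to 24733521 per library. The macrophage marker Hml averaged 19640 CPM on HSD and 17910 CPM on CD. TMM scaling factors, which edgeR derives from the bulk of the genes, lay between 0.935 and 0.956 in the HSD libraries and between 1.01 and 1.08 in the CD libraries, so the fitted fold changes below are slightly larger than the ratios of unscaled CPM. Values of a gene are given in replicate order, which is 1, 2, 3 and 4 for HSD and 1, 3, 4 and 5 for CD. The members were selected on the difference between the diets, so their fold changes are descriptions, given with their standard error (SE) and without a test.

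The same values were met by 2.48% of the CG-number genes with at least 2 CPM on HSD and by 1.38% of the genes with other symbols at that level, 67 of 4852. In the edgeR quasi-likelihood test over 7844 genes, 14.4% of all tested genes were higher on HSD at an adjusted p under 0.05, and all 45 members were among them, from which nothing is read, since they were chosen on that contrast. Ratios of the HSD mean to the CD mean ran from 2.00 to 29.6 with a median of 2.63. Of the members, 20 had a ratio under 2.5, 11 lay between 2.5 and 3, 6 between 3 and 4, 7 between 4 and 8, and 1 above 8. Fitted log2 fold changes ran from 1.16 to 4.996 with a median of 1.56. The lowest HSD library stood between 1.06 and 12.5 times above the highest CD library, and by at least 2 times in 15 members. The smallest gaps were those of CG17687 at 1.06 and CG17646 at 1.19.

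**Figure D1:**
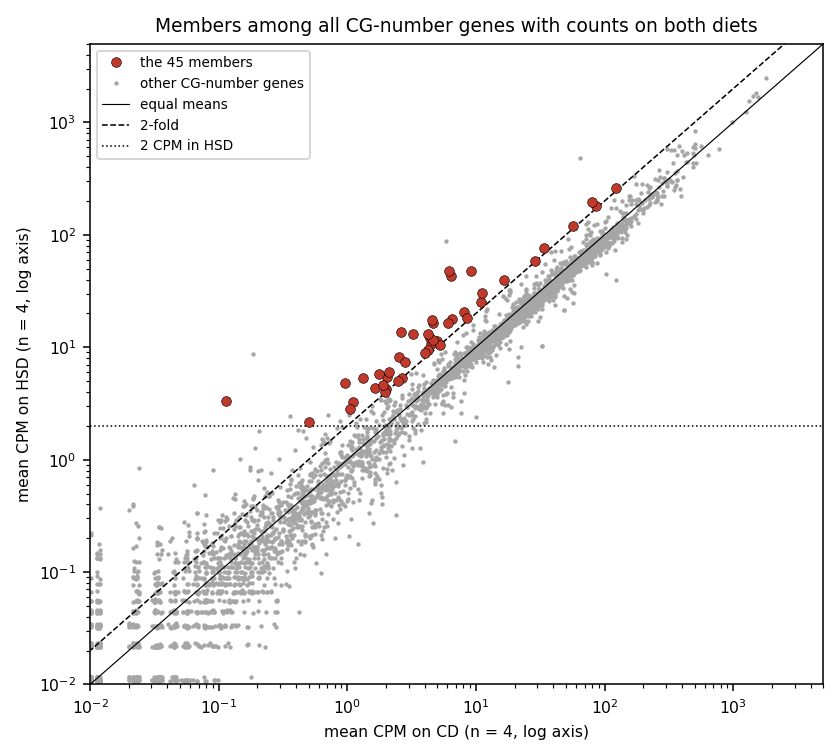
Mean CPM of each CG-number gene on HSD (vertical, n = 4) against CD (horizontal, n = 4), both on log axes, with the 45 members in red and lines at equal means, at 2-fold and at 2 CPM on HSD; genes without a count on either diet fall outside the axes. The members spread over HSD means of 2.16 to 263 CPM along the 2-fold line, and CG5697 stands farthest to its left, at 3.36 CPM on HSD against 0.114 CPM on CD.

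At the ratio threshold, the members just inside were CG31974 and CG17646, both at 2.00, and CG14441 at 2.02, and the CG-number genes just outside were CG44325 at 1.996, CG4250 at 1.96 and CG4752 at 1.92. At the level threshold, the members just inside were CG18180 at a mean of 2.16 CPM on HSD, CG16782 at 2.85 CPM and CG34454 at 3.24 CPM, and those just outside were CG13516 at 1.97 CPM, CG13000 at 1.92 CPM and CG3301 at 1.84 CPM. Near the ratio threshold, CG31974 had 5.85, 4.25, 4.196 and 5.75 CPM on HSD, against 2.74, 2.67, 2.33 and 2.26 CPM on CD. CG17646 had 12.3, 8.15, 9.85 and 11.8 CPM on HSD, against 4.23, 4.85, 5.08 and 6.84 CPM on CD, and CG14441 had 4.85, 3.28, 3.77 and 3.97 CPM on HSD, against 1.63, 2.31, 2.28 and 1.63 CPM on CD. HSD replicate 1 was the highest library of all 3. Near the level threshold, CG16782 had 2.44, 3.14, 2.48 and 3.32 CPM on HSD, against 1.25, 0.809, 1.45 and 0.679 CPM on CD. CG18754, CG9733 and CG14431 met both thresholds and were kept out because their diets overlapped.

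**Figure D2:**
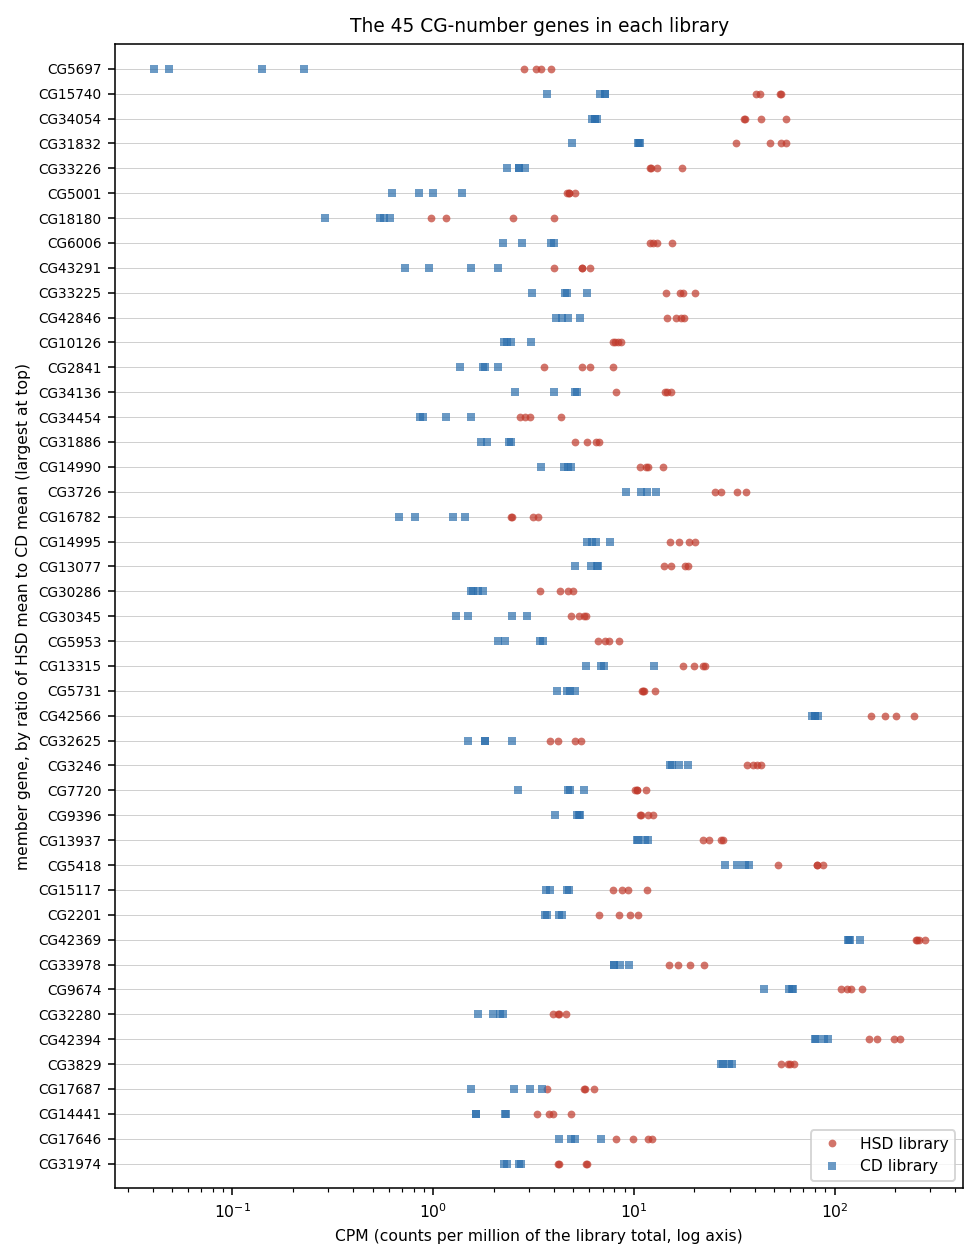
CPM of the 45 members in each library on a log axis, with circles for the 4 HSD libraries and squares for the 4 CD libraries, and genes ordered by the ratio of means with the largest at the top. No member has a CD library above an HSD library, as the choice required, and the space between the diets is widest for CG5697, CG15740 and CG34054 and closes almost fully for CG17687.

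CG5697 (FBgn0038846, chr3R:21015949-21017120, plus strand, a coding sequence of 133 codons) had the largest ratio. It had 3.88, 3.45, 2.83 and 3.27 CPM in the HSD libraries and 0.048, 0.040, 0.14 and 0.23 CPM in the CD libraries. The CD values rest on 1, 1, 3 and 5 reads, 10 in all, against 303 reads in the HSD libraries. Every HSD library lay at least 12.5 times above every CD library, and the fitted log2 fold change was 4.996 ± 0.352 (SE), a size that depends on those few CD reads. CG5697, CG5001 and CG18180 were the 3 members with a CD mean under 1 CPM.

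CG15740 (FBgn0030340, chrX:11842662-11846099, minus strand, 975 codons) had 54.3, 40.5, 42.6 and 53.5 CPM on HSD, against 3.70, 7.16, 6.81 and 7.15 CPM on CD. CD replicate 1 stood well below the other 3 CD libraries, which lay close together, and the lowest HSD library was 5.66 times the highest CD library. The log2 fold change was 3.10 ± 0.176 (SE). CG34054 (FBgn0054054, chr2R:11409810-11410438, minus strand, 161 codons) had 42.9, 35.4, 35.8 and 57.5 CPM on HSD, against 6.53, 6.43, 6.15 and 6.38 CPM on CD. Its CD libraries were nearly equal, and HSD replicate 4 stood above the other 3 HSD libraries. The log2 fold change was 2.91 ± 0.166 (SE). The next gene, Drip, which encodes an aquaporin water channel, lies 764 bases to its right on the same strand and averaged 1.43 ± 0.920 CPM on HSD and 0.0770 ± 0.0530 CPM on CD (SD, n = 4 each). It had 21, 55, 45 and 9 reads in the HSD libraries and 2, 3, 0 and 2 reads in the CD libraries, and the filter on low counts left it out of the test. Its HSD replicate 4 was the lowest HSD library, where that of CG34054 was the highest.

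Serine proteases and their homologs, counted by RefSeq synonyms, were 5 of the 45 members, and other families were not counted in this way. RefSeq lists CG33226 with the synonym SP243, CG30286 with SP223, CG18180 with SP151, CG33225 with SPH236 and CG14990 with SPH97. There SP stands for serine protease and SPH for homolog. CG33226 and CG30286 are also both listed with SP37 and SPH37, so these names do not settle which of the 2 they are. CG33226 (FBgn0069056, chr2R:21538250-21539293, minus strand) had 12.2, 13.1, 12.0 and 17.4 CPM on HSD, against 2.69, 2.67, 2.33 and 2.85 CPM on CD. The CD libraries lay close together, HSD replicate 4 was the highest HSD library, and the log2 fold change was 2.53 ± 0.142 (SE). CG33225 (FBgn0053225, chr2R:21590275-21591584, plus strand) had 17.1, 14.5, 20.2 and 17.6 CPM on HSD, against 3.12, 4.53, 4.66 and 5.84 CPM on CD. Its diets were far apart, with the lowest HSD library 2.49 times the highest CD library. CG14990 (FBgn0035496) averaged 12.0 ± 1.43 CPM on HSD and 4.37 ± 0.639 CPM on CD (SD, n = 4 each). CG30286 had 3.40, 4.30, 4.97 and 4.72 CPM on HSD, against 1.68, 1.78, 1.59 and 1.54 CPM on CD, and its CD libraries were nearly equal.

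CG18180 (FBgn0036024, chr3L:9641013-9641913, plus strand) had the lowest HSD mean of the members in CPM, though not per kilobase of exon, where CG14441 was lowest at 0.548 CPM per kb. Its coefficient of variation over the HSD libraries was the largest among the members, 65.4%. It had 2.49, 0.974, 1.16 and 4.02 CPM on HSD, against 0.288, 0.566, 0.606 and 0.543 CPM on CD. HSD replicates 1 and 4 were well above HSD replicates 2 and 3, which came close to the CD libraries. The Jonah genes encode digestive proteases of the larval gut, and 15 of them, listed after their values had been seen, summed to 18.2, 4.47, 4.97 and 24.67 CPM on HSD, against 2.16, 1.90, 1.87 and 1.77 CPM on CD. HSD replicates 4 and 1 were the highest in that sum and in CG18180, in the same order. The quasi-likelihood test of edgeR called 3 of the 15 higher on HSD, beside 14.4% of all tested genes. Nothing is read from that count, since the list came after the values. Jon25Biii, 1 of the 3 called, had 2.25 ± 1.65 CPM on HSD and 0.176 ± 0.102 CPM on CD (SD, n = 4 each, edgeR quasi-likelihood, adjusted p = 0.00205). Of the gut markers alphaTry, betaTry, Jon65Aiv, Amy-p and LManII, 4 were in the table, and none was called in either direction. The 3 other than LManII summed to 1.53, 0.443, 1.88 and 2.38 CPM on HSD, against 1.01, 0.890, 0.793 and 1.68 CPM on CD. In that sum HSD replicate 3 stood above HSD replicate 1, unlike in CG18180 and the Jonah sum. The part of gut RNA in CG18180 was not tested.

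The table held 114 CG-number genes with an SP or SPH synonym, a list drawn up after values had been seen. Of the 59 that could be tested, edgeR's quasi-likelihood test at an adjusted p under 0.05 called 21 higher on HSD (35.6%) and 11 lower (18.6%), beside 14.4% higher and 11.6% lower among all tested genes. The 5 members are among the 21 and were chosen for being higher, and without them 16 of 54 were higher (29.6%) and 11 lower (20.4%). The median log2 fold change of these 54 was 0.09, beside -0.01 over all tested genes. Of 38 with at least 2 CPM on HSD, the 5 members (13.2%) met the values of the choice, and 44 of 1938 CG-number genes without such a synonym (2.27%) did. Nothing is read from these shares, since they count the values used for the choice and the list came after them. Genes of this family were called in both directions. Among the lower ones, CG18478 and CG31827 had almost equal means, 10.34 CPM each on HSD and 32.35 and 32.43 CPM on CD. CG18477 and CG31780 were as close, with 21.54 and 21.5 CPM on HSD and 48.42 and 48.34 CPM on CD. Such genes may not be independent counts. CG34437 (SPH201), which is no member and was picked after its values had been seen, averaged 576.9 CPM on HSD and 303.5 CPM on CD (edgeR quasi-likelihood, adjusted p = 3.65e-06). CG4793, picked likewise, averaged 39.6 CPM on HSD and 121.9 CPM on CD (adjusted p = 1.36e-05).

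CG31832 (FBgn0051832, chr2L:15030928-15031750, minus strand, 227 codons) belongs to the fibrinogen-related proteins, a family of secreted lectin-like proteins. It had 57.4, 54.0, 47.7 and 32.5 CPM on HSD, against 10.5, 10.6, 10.7 and 4.93 CPM on CD. HSD replicate 4 was the lowest HSD library, CD replicate 5 was well under the other 3 CD libraries, and the diets did not overlap. The log2 fold change was 2.55 ± 0.284 (SE). The gene lies inside GABA-B-R1, which encodes a subunit of the metabotropic GABA receptor, on the opposite strand and without a shared exon. GABA-B-R1 is no member, since it has a name of its own, and it had 3.93, 2.75, 2.96 and 2.38 CPM on HSD, against 0.192, 0.121, 0.0932 and 0.0453 CPM on CD. Both genes had their highest HSD value in replicate 1 and their lowest in replicate 4, and their lowest CD value in replicate 5. The host's log2 fold change was 4.83 ± 0.346 (SE; edgeR quasi-likelihood, adjusted p = 8.8e-07), with only 10 reads in the 4 CD libraries together. The library kit is not described as strand-specific, so reads of one strand cannot be told from reads of the other.

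CG42369 (FBgn0259715, chr2L:6395853-6397249, minus strand, a single exon coding for 401 codons) was the most abundant member by CPM. It had 256, 263, 281 and 253 CPM on HSD, against 134, 118, 117 and 119 CPM on CD. Its HSD libraries lay within a narrow range and CD replicate 1 was the highest CD library. The log2 fold change was 1.27 ± 0.0656 (SE), with the smallest SE of all members. The gene lies inside DIP-epsilon, which encodes a cell-surface protein of the immunoglobulin superfamily, on the same strand and without a shared exon. DIP-epsilon had 21.1, 20.5, 20.6 and 15.5 CPM on HSD, against 8.21, 8.81, 8.25 and 8.74 CPM on CD (log2 fold change 1.36 ± 0.0997, SE; edgeR quasi-likelihood, adjusted p = 1.07e-06). Its HSD replicate 4 was low where that of CG42369 was level with the rest.

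**Figure D3:**
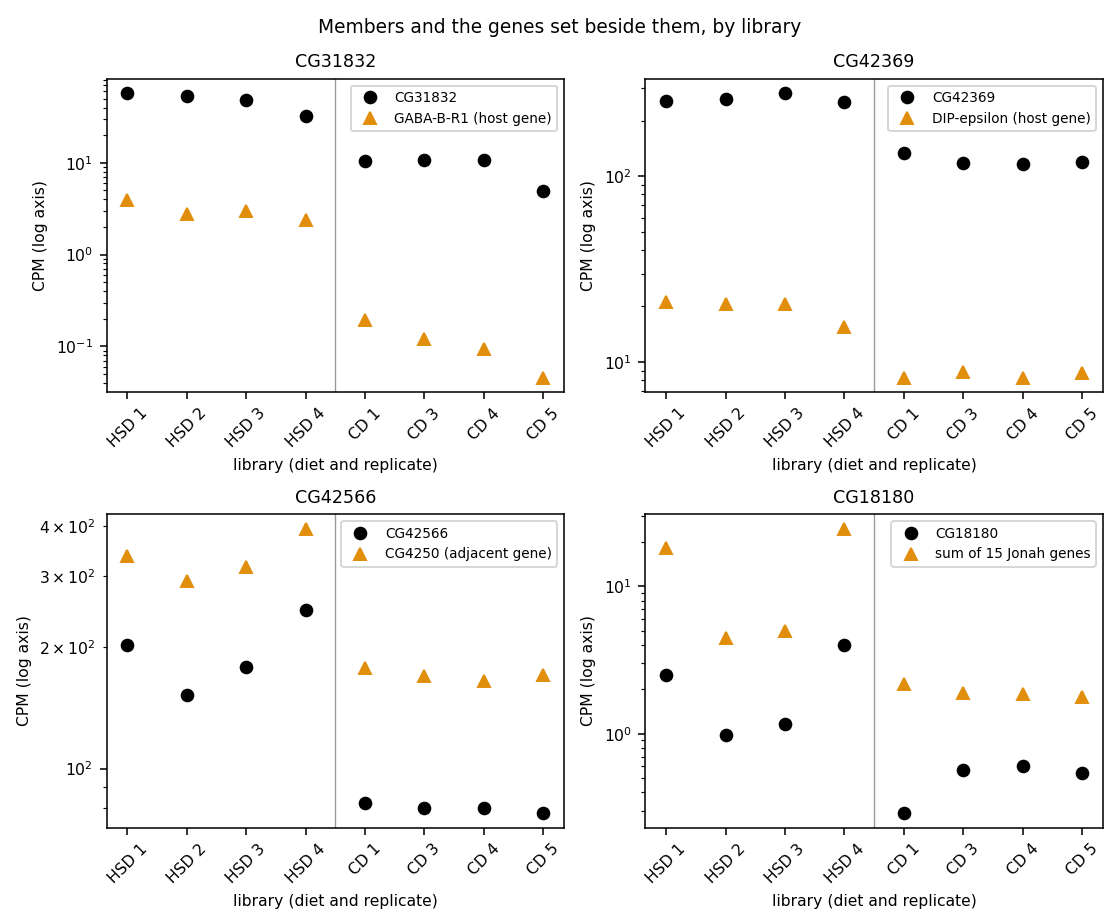
CPM on log axes in the HSD libraries (left of each grey line) and CD libraries (right) for 4 members, as black circles, and for the genes set beside them, as orange triangles. CG31832 and its host GABA-B-R1 share their highest and lowest HSD libraries. CG42369 is level across HSD while its host DIP-epsilon drops to 15.5 CPM in replicate 4. CG42566 and CG4250 hold the same order over HSD, as do members not drawn here, such as CG3726 and CG32625. CG18180 and the Jonah genes are both high in HSD replicates 1 and 4.

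The 2 members with the highest level per exon length encode very short proteins. Per kilobase of exon, which allows genes to be compared, the highest means on HSD were those of CG42394 (77 codons) at 284 CPM per kb, CG42566 (76 codons) at 224 CPM per kb, CG42369 at 188.5 CPM per kb, CG34054 at 78.7 CPM per kb, CG5418 at 63.5 CPM per kb and CG31832 at 62.9 CPM per kb. CG13315 (69 codons), CG42846 (167 codons), CG3246 (445 codons) and CG34136 (77 codons) followed, with 33.3, 29.1, 26.5 and 18.5 CPM per kb. On CD the same measure was 135 CPM per kb for CG42394 and 91.6 CPM per kb for CG42566. The coding sequence was under 200 codons in 12 of the 45 members (26.7%), beside 15.7% of the 1931 other CG-number genes with at least 2 CPM on HSD. Medians were closer, at 355 codons in the members and 390 in those other genes. As a whole the members were not abundant, with a median of 6.542 CPM per kb on HSD and 1.90 CPM per kb on CD, beside 12.7 CPM per kb on HSD and 13.97 CPM per kb on CD for the other CG-number genes.

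CG42394 (FBgn0259740, chr3R:10849825-10851788, plus strand) had 197, 162, 149 and 213 CPM on HSD, against 80.8, 80.1, 93.0 and 88.4 CPM on CD. Its ratio of 2.105 was among the lower ones, and HSD replicates 1 and 4 were above HSD replicates 2 and 3. CG42566 (FBgn0260768, chr2R:22661934-22663241, plus strand) had 203, 152, 179 and 248 CPM on HSD, against 82.3, 80.0, 80.0 and 77.4 CPM on CD. Its CD libraries were nearly equal while its HSD libraries were spread widely, and its ratio was 2.45. The next gene on the same strand, CG4250, starts 450 bases beyond its end and missed the threshold of the choice at a ratio of 1.96. CG4250 had 337, 292, 317 and 395 CPM on HSD, against 177, 170, 165 and 171 CPM on CD (log2 fold change 1.14 ± 0.0827, SE; edgeR quasi-likelihood, adjusted p = 1.28e-06). Both genes had the same order over the HSD libraries, replicate 4 highest and replicate 2 lowest. That order was not particular to them. Members on other chromosome arms, such as CG3726, CG31886, CG32625 and CG18180, had it too, and HSD replicate 2 was the lowest in 23 of the 45 members.

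Among the other short-protein genes, CG42846 (FBgn0262035) and CG34454 (FBgn0085483) are adjacent on the minus strand of chromosome 3L, at 230971 to 231604 and 231681 to 232350. CG42846 had 17.7, 14.6, 16.2 and 17.2 CPM on HSD, against 4.37, 4.08, 5.36 and 4.71 CPM on CD. CG34454 had 2.71, 2.88, 3.04 and 4.35 CPM on HSD, against 0.865, 0.890, 1.17 and 1.54 CPM on CD. The pair did not share an order of libraries, since HSD replicate 1 was highest for CG42846 and lowest for CG34454. CG13315 had 22.7, 17.5, 20.04 and 22.1 CPM on HSD, against 5.76, 7.08, 6.85 and 12.6 CPM on CD, where CD replicate 5 came near the HSD range. CG34136 (FBgn0083972) had 14.2, 15.3, 14.7 and 8.13 CPM on HSD, against 2.55, 5.09, 5.22 and 3.98 CPM on CD, with HSD replicate 4 well below the other 3. CG43291 (137 codons) had 6.07, 5.54, 3.98 and 5.51 CPM on HSD, against 0.721, 1.54, 2.098 and 0.951 CPM on CD. CG9616, which lies 126 bases from CG43291 on the same strand, averaged 1.01 ± 0.176 CPM on HSD and 0.295 ± 0.0931 CPM on CD (log2 fold change 1.93 ± 0.32, SE; edgeR quasi-likelihood, adjusted p = 0.000732).

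Several members encode enzymes or membrane proteins of known families. The most abundant by CPM was CG9674, a glutamate synthase that by its family makes glutamate from glutamine and alpha-ketoglutarate. It had 137.5, 115.7, 121.5 and 107.5 CPM on HSD, against 44.3, 59.1, 62.1 and 61.3 CPM on CD, with CD replicate 1 the lowest library of all. CG3829, a scavenger receptor of the CD36 family, whose proteins bind lipoproteins and lipids at the cell surface, had 60.3, 54.3, 58.5 and 63.2 CPM on HSD, against 30.9, 27.3, 29.7 and 27.9 CPM on CD. The libraries of each diet lay close together and the ratio was 2.04. CG6006, of the organic cation transporter family, had 15.5, 12.0, 12.4 and 13.0 CPM on HSD, against 2.79, 3.88, 4.01 and 2.22 CPM on CD, a ratio of 4.10. CG5001, a DnaJ-type co-chaperone, which helps Hsp70 bind its clients, had 4.63, 4.74, 4.75 and 5.09 CPM on HSD, against 0.625, 0.849, 1.40 and 0.996 CPM on CD, a ratio of 4.97.

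The other members with a known family had ratios between 2.00 and 2.71. CG13077, of the cytochrome b561 family of membrane electron carriers, averaged 16.5 ± 2.16 CPM on HSD and 6.11 ± 0.703 CPM on CD (SD, n = 4 each, as for the values that follow). CG5731, an alpha-galactosidase of the lysosomal type, averaged 11.5 ± 0.802 CPM on HSD and 4.68 ± 0.396 CPM on CD. CG15117, a beta-glucuronidase, averaged 9.41 ± 1.61 CPM on HSD and 4.22 ± 0.563 CPM on CD. Both glycosidases by family cut sugars from glycans and glycolipids. CG7720, for which RefSeq lists dSLC5A1, a name of the sodium-coupled solute transporters, averaged 10.6 ± 0.653 CPM on HSD and 4.44 ± 1.27 CPM on CD. CG13937 has the synonym d4ST2, a sulfotransferase name, and averaged 25.2 ± 2.71 CPM on HSD and 10.99 ± 0.665 CPM on CD. CG2201, of the choline kinase family, which starts phosphatidylcholine synthesis, averaged 8.80 ± 1.64 CPM on HSD and 3.99 ± 0.386 CPM on CD. CG17646, an ABC transporter with the synonym ABCG1, and CG31974, of the ecdysteroid kinase-like family, were the members closest to the ratio threshold.

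CG9396 belongs to the family of mitochondrial pyruvate carriers and lies 287 bases from CG9399, another gene of that family on the same strand. CG9396 had 11.7, 10.8, 10.9 and 12.5 CPM on HSD, against 5.33, 5.38, 4.06 and 5.21 CPM on CD, a log2 fold change of 1.36 ± 0.11 (SE). CG9399 was more abundant by CPM, with 19.8 ± 1.14 CPM on HSD and 15.2 ± 0.332 CPM on CD (SD, n = 4 each), and its log2 fold change was 0.54 ± 0.0658 (SE; edgeR quasi-likelihood, adjusted p = 5.89e-05). The difference between these fold changes was not tested, since CG9396 was chosen for its size.

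The remaining members are named without a role. CG5418 had 81.9, 87.9, 81.6 and 52.2 CPM on HSD, against 37.7, 35.7, 32.5 and 28.5 CPM on CD, so that HSD replicate 4 came nearest to the CD range. CG3246 had 43.3, 36.6, 39.4 and 40.9 CPM on HSD, against 18.7, 16.9, 15.5 and 15.1 CPM on CD, and the libraries of each diet lay close together. CG3726 averaged 30.4 ± 5.01 CPM on HSD and 11.1 ± 1.58 CPM on CD, and CG33978 on chromosome 4 averaged 18.2 ± 3.25 CPM on HSD and 8.46 ± 0.682 CPM on CD (SD, n = 4 each). CG2841, listed by RefSeq as ptr, had 7.86, 6.07, 5.52 and 3.55 CPM on HSD, against 2.11, 1.78, 1.82 and 1.36 CPM on CD. CG10126, CG14995, CG16782, CG30345, CG31886, CG32625 and CG5953 had ratios between 2.44 and 3.26, and CG14441, CG17687 and CG32280 had ratios between 2.02 and 2.12.

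Summed over all 45 members, the HSD libraries held 1514, 1334, 1385 and 1494 CPM and the CD libraries 565.6, 578.7, 590.5 and 571.7 CPM. The 4 members with the highest CPM, CG42369, CG42566, CG42394 and CG9674, made up 53.1% of the mean HSD sum, so the sum says little of the scarcer members. The spread within a diet was also taken for each member. The median coefficient of variation over the 4 HSD libraries was 15.1% in the members and 6.78% in the other CG-number genes with at least 2 CPM on HSD, and over the 4 CD libraries it was 14.7% and 7.10%. Under 50 CPM on HSD, which held 39 members and 1442 of the other genes, the median was 15.1% in the members and 7.57% in the others on HSD. This cut does not match the levels. Over all members the median level was 11.5 CPM on HSD and 4.37 CPM on CD, beside 23.8 and 26.0 CPM in the other genes. The part of level in the spread was not tested.

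Each library was set against the mean of the other 3 of its diet. The share of members outside 0.8 to 1.25 times that mean was 13.3%, 20%, 17.8% and 35.6% in HSD replicates 1 to 4 and 51.1%, 20%, 24.4% and 33.3% in CD replicates 1, 3, 4 and 5. By this measure HSD replicate 4 and CD replicate 1 departed most within their diets. The same 2 libraries led among the other CG-number genes, at 8.08% for HSD replicate 4 and 13.4% for CD replicate 1. HSD replicate 4 was under 0.8 times the mean of the other HSD libraries in 6 members, CG2841, CG34136, CG31832, CG5418, CG17687 and CG33978, with ratios from 0.548 to 0.771. It was over 1.25 times that mean in 10, led by CG18180 at 2.61, CG34054 and CG34454 at 1.51 each, CG33226 at 1.40 and CG42566 at 1.39. Among genes under 50 CPM, a cut that does not match their levels, HSD replicate 4 lay outside that range in 33.3% of the members. It did so in 9.29% of the other CG-number genes. CD replicate 1 was under 0.8 times the mean of the other CD libraries in 20 members, with CG5697 lowest at 0.354, and over 1.25 times in 3. It was the lowest CD library in 42.2% of the members and in 42.0% of the other CG-number genes. HSD replicate 2 was the lowest HSD library in 23 members (51.1%, beside 33.8% of the other CG-number genes) and HSD replicate 1 the highest in 18 (40.0%, beside 20.7%).

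**Figure D4:**
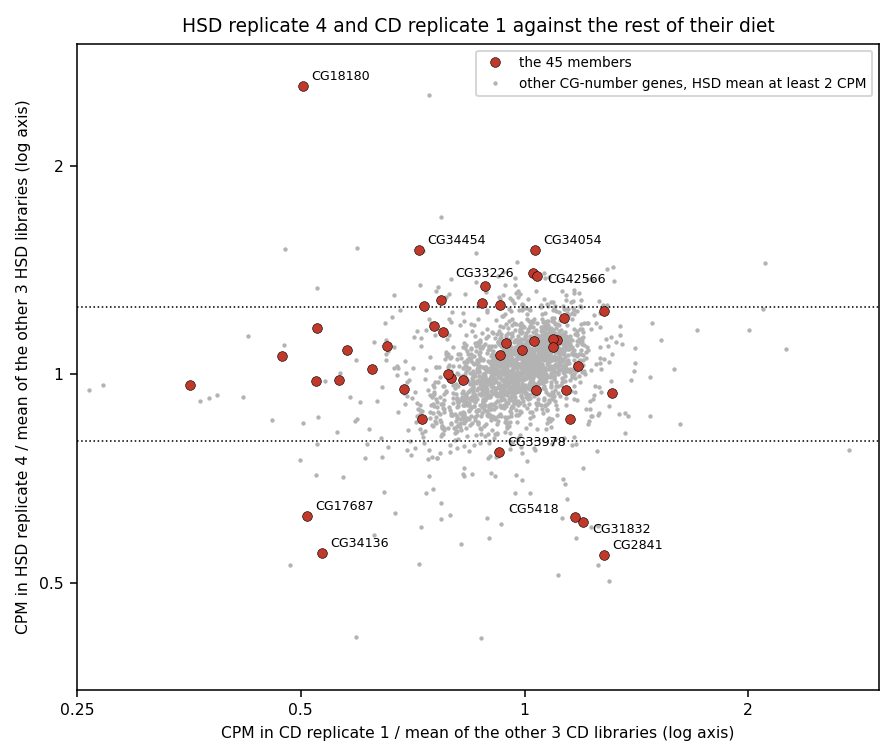
CPM in HSD replicate 4 over the mean of the other 3 HSD libraries (vertical) against CPM in CD replicate 1 over the mean of the other 3 CD libraries (horizontal), both on log axes, with members in red, other CG-number genes with at least 2 CPM on HSD in grey, and dotted lines at 0.8 and 1.25. Of the 45 members, 10 lie above the upper line, 6 lie below the lower one, and 20 lie left of 0.8 on the horizontal axis.

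Markers of hemocyte classes also differed between these libraries. The 6 crystal cell markers lz, PPO1, PPO2, klu, peb and Naxd summed to 38390, 41810, 41520 and 27730 CPM on HSD, against 27530, 29230, 28610 and 24560 CPM on CD, and edgeR's quasi-likelihood test called 5 of the 6 higher on HSD, beside 14.4% of all tested genes. HSD replicate 4 was the lowest HSD library in that sum, and also in the sums of the plasmatocyte, lymph gland and gut markers. The gut sum was nearly all LManII, and without it HSD replicate 4 was the highest HSD library, at 2.38 CPM. It was also the highest in the lamellocyte sum, at 363 CPM. Among the members it was the lowest HSD library in 10 and the highest in 15. The 8 plasmatocyte markers summed to 111400, 102600, 104600 and 97560 CPM on HSD, against 73350, 78740, 85440 and 89050 CPM on CD, with 7 of 8 higher. The 5 lamellocyte markers in the table summed to between 346 and 363 CPM on HSD and between 206 and 239 CPM on CD, with all 5 higher. Most of that sum was ItgaPS5, at 309.7 CPM on HSD and 199.0 CPM on CD. The scarcer atilla averaged 5.71 CPM on HSD and 0.217 CPM on CD, and ItgaPS4 3.07 CPM on HSD and 0.0233 CPM on CD. The lymph gland markers summed to between 1180 and 1296 CPM on HSD and between 799.5 and 909.1 CPM on CD. Of them 2 of 5 were higher, of the muscle markers 1 of 8, and of the testis markers 1 of the 3 in the table. None of the 6 fat body, 4 neuron, 4 cuticle or 4 salivary gland markers was called in either direction. Some were too scarce to be called, such as Sgs8 at 0.0107 CPM on HSD and 0.0552 CPM on CD. The fat body markers summed to 13.4, 18.5, 13.3 and 18.2 CPM on HSD, against 44.6, 76.45, 14.4 and 13.7 CPM on CD. The salivary gland markers summed to at most 0.0934 CPM on HSD and to between 0.283 and 3.94 CPM on CD. The part of these markers, or of any shift in cell classes, in the values of the members was not tested.

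The position of the members was read from the Ensembl annotation of the dm6 assembly. They lay on all major chromosome arms, with 13 on 2L, 10 on 3L, 8 on 2R, 7 on 3R, 6 on X and 1 on chromosome 4. The share on 2L was 28.9%, beside 17.0% of the other CG-number genes with at least 2 CPM on HSD, and that on 3L was 22.2%, beside 18.5%. The shares on 3R (15.6%, beside 25.01%), on X (13.3%, beside 19.1%) and on 2R (17.8%, beside 20.04%) lay below those of the other genes. All 45 were protein coding. An exon overlapped an exon of another gene in 10 of the 45 members, beside 879 of the 1931 other CG-number genes with at least 2 CPM on HSD. In the members the overlap covered at most 18.3% of the exonic length, in CG5731. It covered 13.2% in CG32280, 8.60% in CG5418 and 6.70% in CG6006, and reads there may belong to either gene. In 3 cases 2 members lay within 20 kb of each other.

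The first pair, CG30286 and CG33226, stood in a run of 4 genes on the minus strand of chromosome 2R, all of the serine protease family and all inside Egfr, which lies on the plus strand and encodes the EGF receptor. The gene between the pair, CG30287, averaged 1.57 ± 0.138 CPM on HSD and 0.692 ± 0.295 CPM on CD (SD, n = 4 each; edgeR quasi-likelihood, adjusted p = 0.00515), too little on HSD to be a member. The fourth, CG30283, had 24.5, 25.9, 25.8 and 34.2 CPM on HSD, against 16.4, 15.9, 16.3 and 18.5 CPM on CD (adjusted p = 5.32e-05), a ratio of 1.64. All 4 genes of the run were higher on HSD, by ratios of 2.64, 2.26, 5.18 and 1.64 from left to right. Egfr itself averaged 1.14 ± 0.224 CPM on HSD and 1.82 ± 0.450 CPM on CD, and its log2 fold change of -0.51 ± 0.244 (SE) did not pass the test (adjusted p = 0.148). CG33225 lies 50981 bases from CG33226 on the other strand.

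The second pair was CG42846 and CG34454, 76 bases apart. The next gene on their strand, CG34453, was scarce, with 12 reads over the HSD libraries and 23 over the CD libraries. The long noncoding lncRNA:CR42862 on the opposite strand, which ends 6 bases from CG42846, averaged 1126 CPM on HSD and 1178 CPM on CD and did not pass the test (edgeR quasi-likelihood, adjusted p = 0.537). The third pair, CG14990 and CG14995 on chromosome 3L, overlapped by 2 bases at their ends on opposite strands, with ratios of 2.74 and 2.72. CG14990 had 11.5, 14.04, 11.7 and 10.7 CPM on HSD, against 4.85, 4.49, 4.71 and 3.44 CPM on CD. CG14995 had 20.3, 15.1, 16.9 and 18.8 CPM on HSD, against 6.49, 7.60, 5.83 and 6.20 CPM on CD. HSD replicate 2 was the highest HSD library for CG14990 and the lowest for CG14995.

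**Figure D5:**
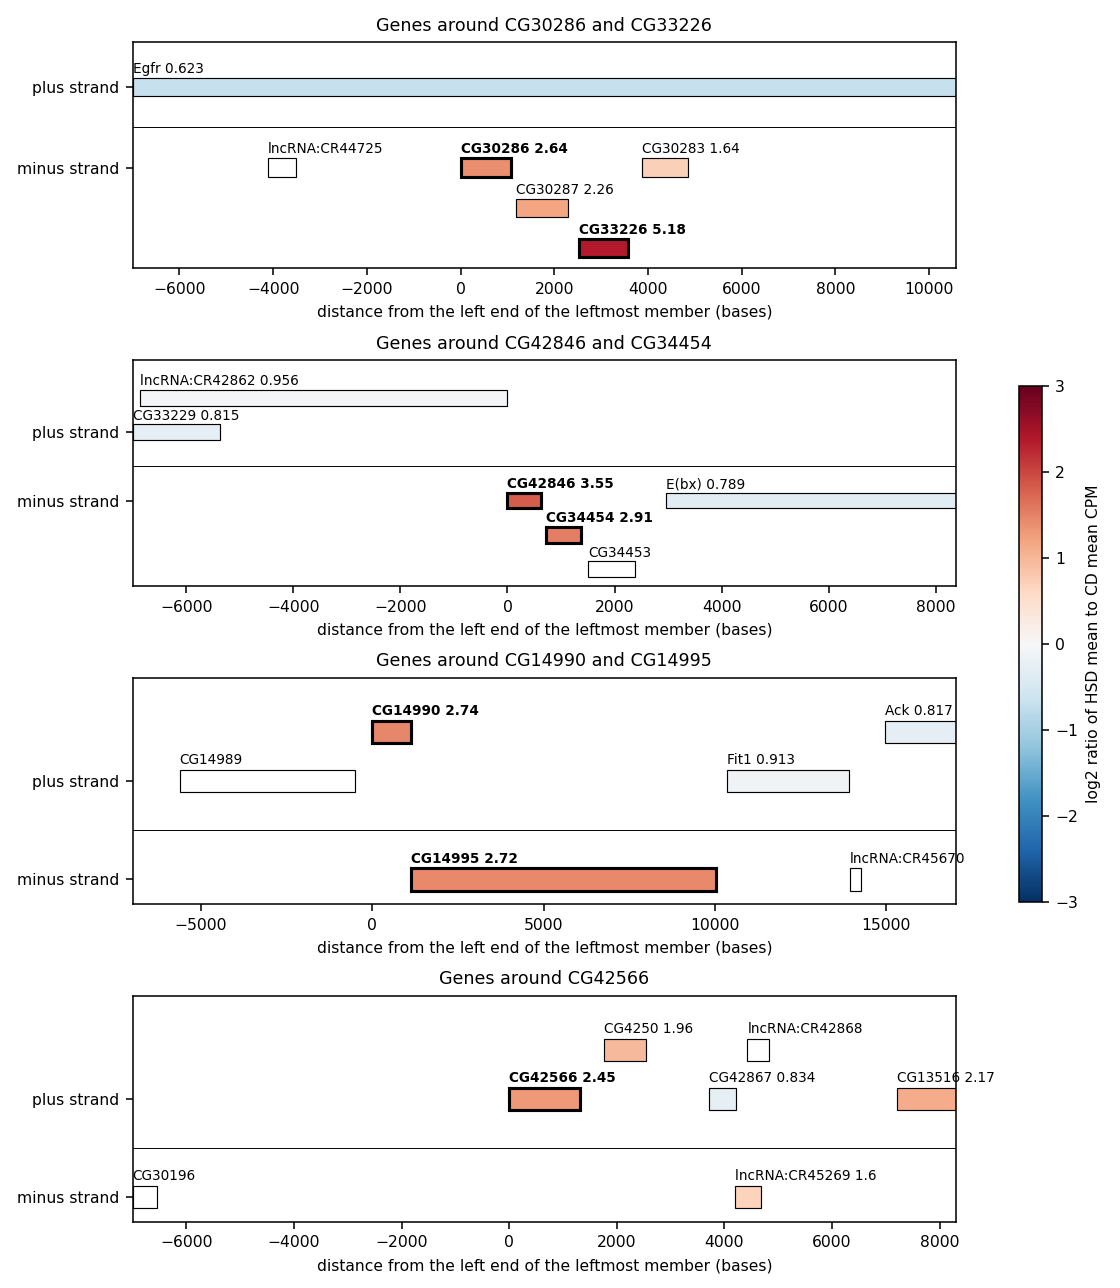
Genes around the 3 pairs of members and around CG42566, drawn to scale by distance in bases from the left end of the leftmost member, with members outlined in bold, colour giving the log2 ratio of the HSD mean to the CD mean CPM, the ratio printed beside each symbol, and genes with fewer than 50 reads over the 8 libraries left white. All 4 serine protease genes inside Egfr are red while Egfr is pale blue at 0.623, and CG42566, CG4250 and CG13516 are red at 2.45, 1.96 and 2.17.

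Altogether 8 members lay inside another gene, none of them sharing an exon with it. Beside GABA-B-R1, DIP-epsilon and Egfr, the hosts were fry for CG18180, ND-15 for CG31974, a named gene on the other strand for CG34136, and lncRNA:CR44999 for CG16782. The log2 fold change was 0.28 ± 0.114 (SE) in fry, -0.03 ± 0.0692 in ND-15 and 0.05 ± 0.0572 in the host of CG34136, and none of these passed edgeR's quasi-likelihood test (adjusted p = 0.0997, 0.826 and 0.56). The lncRNA:CR44999 had too few reads to be tested. The genes that come next to a member on either side in the table numbered 85 without the members themselves. Of the 51 that were tested, 14 were higher on HSD (27.5%, beside 14.4% of all tested genes) and 3 were lower, and their median log2 fold change was 0.10, beside -0.01 over all tested genes. These neighbours were not chosen by their own values. Some overlap a member's gene, and of those tested GABA-B-R1 was higher, while Asciz, nudC, emp, Sec5 and the host of CG34136 were not called. Of the 39 tested within 1 kb of a member 11 were higher, beside 14.4% of all tested genes. The part of overlap or distance in these counts was not tested.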

How the data were processed

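Counts of reads per gene were taken from the table the authors deposited, which holds whole numbers that were not normalized, for 4 HSD and 4 CD libraries. The tools named per the submitters' processing notes are the read trimmer Trim Galore (0.6.7), the aligner STAR (2.7.10a) and the counter featureCounts (no version), with the build dm6. Neither strandedness nor multi-mapping is described, and the poly(A) kit is not described as strand-specific, so reads of overlapping or antisense genes, and of near-identical copies, are uncertain.

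CPM is the count over the column total, scaled as its name says. Log2 fold changes came from edgeR 4.0.16 in R 4.3.3 (TMM, filterByExpr with a minimum count of 10, robust quasi-likelihood, diet as the only term) fitted on the whole table, 7844 genes, with Benjamini-Hochberg adjustment and a threshold of 0.05. The fitting code was checked on simulated counts with known changes. DESeq2 1.42.0 was an alternative. Symbols, coordinates and exonic lengths came from Ensembl (dm6) and synonyms from RefSeq; 71 identifiers had no symbol.

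The members and lists were chosen with earlier results of these data known. Members to be named were the 10 largest ratios, the 10 highest levels per kilobase, those within 20 kb of another member and the 3 just inside each threshold, with the 3 genes just outside. Others were to be named by group, and values of some of these were added after they had been seen. Protein and promoter sequences were not analysed here.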

Additional observations from a re-analysis of the deposited data

Results flagged for a closer look

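In 4 of 52 groups of 4 libraries examined, 1 library stood apart from the other 3 by Dixon's gap ratio, where chance alone marks about 1 in 20 groups. HSD replicate 4 held CG34136 at 8.13 CPM, below the other HSD libraries. CD replicate 1 held CG15740 at 3.70 CPM, below the other CD libraries, and CG42369 at 134.1 CPM, above them. CD replicate 5 held CG31832 at 4.93 CPM, below the other CD libraries.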

How the results depend on the processing

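Of the 45 members, 36 met the values of the choice whichever library was left out, and 9 (CG14441, CG17646, CG17687, CG18180, CG31974, CG33978, CG3829, CG42394 and CG9674) missed them at least once; the number of genes meeting them ran from 41 to 49. Without CD replicate 1 and HSD replicate 4 together, chosen after seeing the data, 45 genes met them, 38 of them members. A ratio of at least 1.5 gave 88 genes, a ratio of at least 3 gave 14, and no minimum level gave 98, by construction of these thresholds. TMM or RLE scaling of the CPM gave 57, all 45 members included. Scaling by library size only shifted the median over the 7844 tested genes by -0.16 on the log2 scale. Each of the 381 fold changes of named members that an alternative could fit kept its direction and its call. The members were chosen on this contrast, so this was largely set in advance. A filter of at least 5 CPM in 4 libraries left 31 of the 45 members to be tested, and all 31 were called. The log2 fold change of CG18180 moved most, to 1.61 without CD replicate 1 and HSD replicate 4. Deviations from the diet mean correlated at -0.131, -0.074 and -0.176 between same-numbered HSD and CD libraries. Between libraries with other numbers they correlated at -0.188 to 0.226. These few values give no sign of pairing by number and cannot exclude it. A replicate block, in which HSD replicate 2 and CD replicate 5 have no partner, left 45 members called, which their choice made likely. The fold change of CG5697 rests on 10 reads on CD, and the largest SE among the members was 0.466, in CG18180.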
